A study of Mus musculus with 14 samples.

Results

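The comparison was between bone marrow-derived macrophages that had met Poly I:C and macrophages that had met PBS on the day before 6 h of LPS. It rests on 4 of the 14 libraries of the series, 2 for each first stimulus. Of 39721 rows in the deposited expression table, 11977 carried a gene name and reached 1 FPKM in at least 2 of the 14 libraries, and all of these were tested. FPKM is the number of sequenced fragments of a transcript scaled to its length and to the size of the library. It is a relative level, and comparing it between libraries depends on how they were scaled.

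Macrophages were grown from marrow of male C57Bl6/J mice aged 6 to 12 weeks, in medium holding L929-conditioned medium as the source of the growth factor CSF-1. No allele differed between groups. Cells received Poly I:C at 100 ng/mL or PBS for 24 h, were washed, and then received LPS or PBS. The LPS dose of this second step is not stated in the labels. The 6 h groups used here were Poly I:C then LPS (2 libraries), PBS then LPS (2), Poly I:C then PBS (2) and PBS then PBS (1), and the 2 h groups were Poly I:C then LPS (2) and PBS then LPS (2). The labels do not say whether replicates came from separate mice or cultures, or whether marrow was pooled, so the p-values rest on the spread between the libraries alone, and that spread may be technical.

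Poly I:C is a synthetic analogue of viral RNA that is sensed by TLR3 in endosomes and by cytosolic RNA sensors. LPS, from the outer membrane of Gram-negative bacteria, signals through TLR4. Both signals turn on NF-kB, AP-1 and interferon regulatory factors, and macrophages that meet a second signal a day after the first are known to answer it differently. An LPS response also draws on housekeeping programmes: it makes ribosomes, imports amino acids, reroutes carbon metabolism and exchanges the receptors on the cell surface. These programmes, rather than cytokines and interferon-stimulated genes, are described here.

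Libraries of the same group correlated at r = 0.988 in both 6 h LPS groups. These correlations run across genes, and genes are not replicates. Absolute depth is unknown, because FPKM keeps no counts. The labelled cell type was checked against 10 macrophage markers, all of which were detected in all 4 libraries. Their summed level was 6881 to 6984 FPKM after Poly I:C and 17270 to 18760 FPKM after PBS, and 7 of the 10 were lower after Poly I:C, 1 higher. All 8 natural killer cell markers were at 0 in the 4 libraries, as were Cd3d, Cd3e, Cd3g, Cd8a, Cd8b1, Trac and Cd2 of T cells, Pax5 and Blk of B cells, and Elane, Mpo, Prtn3, Ngp, Ltf, Ly6g and S100a9 of neutrophils. Other T cell, B cell and neutrophil markers were detected. Summed B cell markers stood at 0.555 to 0.697 FPKM after Poly I:C and 4.33 to 5.66 FPKM after PBS. Summed neutrophil markers stood at 59.3 to 82.6 and 48.3 to 61.4 FPKM, and stromal markers at 46.9 to 58.4 and 31.1 to 75.4 FPKM. Of 4 neutrophil markers tested 2 were higher after Poly I:C and 1 lower, and the 1 B cell marker tested was lower. Summed dendritic cell markers stood at 16.4 to 22.1 FPKM after Poly I:C, where Ccr7 gave 17.7 and 12.3 FPKM, and 4.03 to 4.76 FPKM after PBS, where Ccr7 gave 0.0917 and 0.122 FPKM. Summed erythroid and megakaryocyte markers stood at 97.4 to 114 and 756 to 893 FPKM, nearly all of it Pf4, while Hba-a1 and Hbb-bt were at 0. The part of these lists in the results was not tested. In bulk RNA, fewer cells of a type and less RNA per cell cannot be told apart.

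After Poly I:C, 2841 genes were higher (23.7% of those tested) and 3099 lower (25.9%) at 6 h of LPS. These and later calls use limma on log2(FPKM + 1) and a Benjamini-Hochberg adjusted p under 0.05 over all 11977 rows, and "rose" and "fell" below stand for passing that test in the Poly I:C-primed libraries against the PBS-primed ones. Changes of at least 1 on the log2 scale passed in 1099 rows upward (9.18%) and 1377 downward (11.5%). The authors had already scaled the values between libraries, and the median difference over all rows was -0.000194. With upper-quartile scaling 3109 genes were higher and 2896 lower. Both libraries of one group lay above both of the other in 78.8% of rows, and this was so for every gene named with a direction below. For most of those genes it was a condition of being named, so it adds nothing to their calls. Differences are Poly I:C minus PBS in mean log2(FPKM + 1), with their standard error, on n = 2 libraries per group, and understate the change of weakly expressed genes. Every count of list members at 6 h is to be read beside the 23.7% and 25.9% of all genes.

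**Figure D1:**
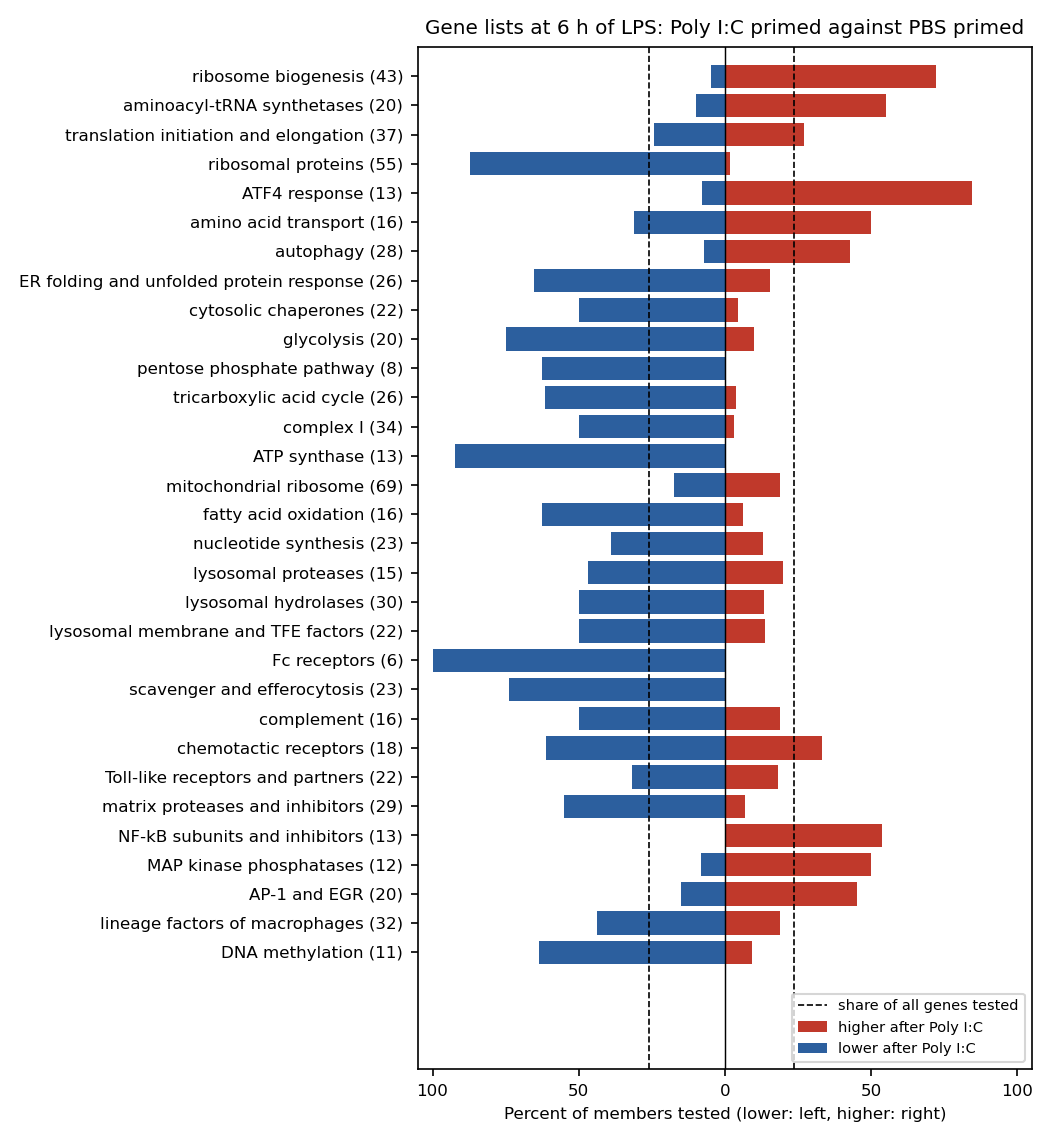
Percent of the tested members of each gene list that passed the test upward (red, to the right) or downward (blue, to the left) at 6 h of LPS, Poly I:C-primed against PBS-primed, with the number tested in brackets and dashed lines at the share of all tested genes. Among the lists drawn, ribosome biogenesis and the ATF4 response extend farthest to the right, and Fc receptors, ATP synthase and ribosomal proteins farthest to the left.

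Genes that build ribosomes were higher in Poly I:C-primed cells at 6 h of LPS, while genes for the ribosomal proteins themselves were lower. Of 43 tested ribosome biogenesis factors (45 listed), 31 rose and 2 fell, with a median difference of 1.005, where 23.7% of all genes rose and 25.9% fell. With any 1 of the 4 libraries left out, 30 or 31 rose and 0 or 1 fell, and 1 fell without the filter on low values. Rrs1, a factor of large subunit assembly (chromosome 1, 9545408 to 9547454 in GRCm38), stood at 27.3 and 32.3 FPKM after Poly I:C and 4.28 and 3.07 FPKM after PBS, a difference of 2.73 ± 0.18 (limma adjusted p = 2.01e-06). Gnl3, the nucleolar GTPase nucleostemin (chromosome 14, 30999826 to 31128978), stood at 16.4 and 15.6 FPKM after Poly I:C and 2.72 and 1.73 FPKM after PBS (2.41 ± 0.15, limma adjusted p = 1.43e-06). For both genes the 2 Poly I:C libraries lay far above the PBS pair, whose levels were a few FPKM. Tsr1 and Grwd1, which act in small and large subunit maturation, rose by 2.09 and 1.81. Rcl1, a pre-rRNA processing factor outside the list, was among the 12 largest rises, at 152 and 152 FPKM after Poly I:C and 5.03 and 6.58 FPKM after PBS (4.50 ± 0.27).

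This ordering was the opposite at 2 h. At that time 1 of the 43 biogenesis genes was higher and 39 lower after Poly I:C, with a median of -1.29, against 32.6% and 28.5% of all genes. The 2 h and 6 h comparisons share no libraries. The change in the priming difference from 2 h to 6 h, tested as a difference of differences, was positive in 41 of 43 and negative in 0 (19.1% and 25.3% over all genes), and 27 of the 43 passed in opposite directions at both times. Over all tested genes 1134 did so (9.47%). Rrs1 stood at 44.3 and 38.9 FPKM in PBS-primed and 12.0 and 16.7 FPKM in Poly I:C-primed cells at 2 h, so the PBS-primed pair was high at 2 h and low at 6 h. From 2 h to 6 h, both PBS-primed libraries were lower for 41 of the 43 genes, with a median ratio of 0.361, where 37.8% of all genes were lower in that way. Both Poly I:C-primed libraries were higher at 6 h for 39 of 43, with a median ratio of 2.09, where 30.8% of all genes were. These 2 contrasts share libraries with the comparisons above.

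**Figure D2:**
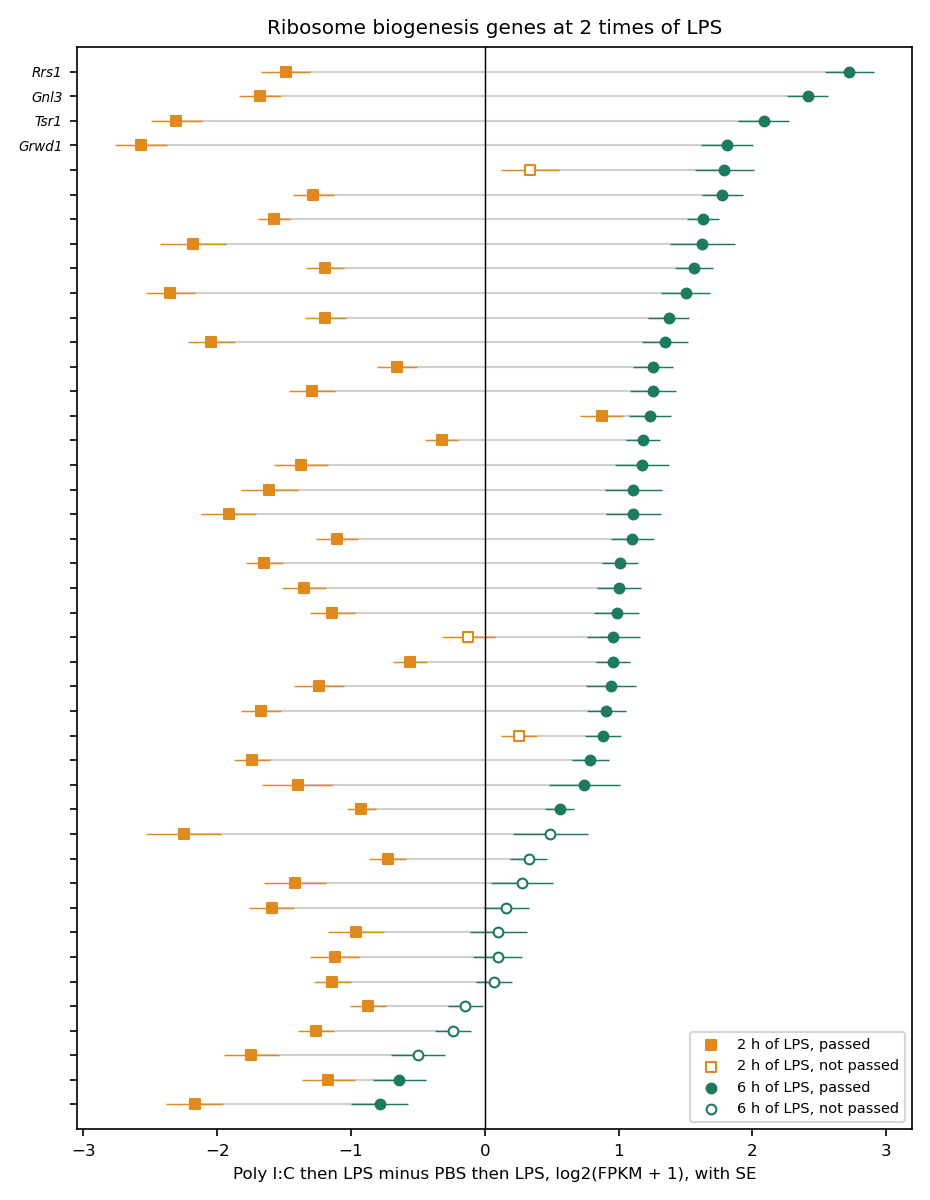
Priming difference, Poly I:C minus PBS in log2(FPKM + 1) with its SE, on the horizontal axis for each of 43 ribosome biogenesis genes (1 row per gene, joined by a line, genes named in the text labelled), at 2 h (orange squares) and 6 h of LPS (green circles), filled where the test was passed. Most squares lie left of 0, with 39 lower at 2 h, and most circles right of it, with 31 higher at 6 h.

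Cells given Poly I:C without LPS did not show the 6 h pattern. In Poly I:C then PBS against PBS then PBS, 0 of 43 biogenesis genes were higher and 14 lower, against 18.4% and 16.1% of all genes. That comparison has 1 control library, whose spread was taken to be that of the other groups. The priming difference under LPS exceeded the one without LPS in 36 of 43 genes and was below it in 0, against 12.7% and 16.7% of all genes, in a test that shares libraries with both. Myc, a transcription factor known to drive ribosome genes, stood at 1.24 and 1.24 FPKM after Poly I:C and 15.9 and 12.2 FPKM after PBS at 6 h (-2.74 ± 0.18). The E-box CACGTG, the letters Myc and related factors bind, occurred in the 250 bases before the start of 2 of 38 biogenesis genes with a promoter sequence (Nop2 and Utp18, 5.26%). It occurred in 787 of 7736 tested genes (10.2%), searching both strands of RefSeq promoters of GRCm38.p6. A match or its absence describes these letters in this window only.

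Ribosomal protein genes moved the other way. Of 55 tested (74 listed, 18 in rows shared with other genes), 48 fell and 1 rose, with a median of -0.76. In the alternatives that kept all 4 libraries, 35 to 51 fell. Fewer than 48 fell with any 1 of the 4 libraries left out, which leaves 1 library in a group. Rpl3 fell most, from 323 and 302 FPKM after PBS to 57.4 and 67.3 FPKM after Poly I:C (-2.31 ± 0.14). Many ribosomal protein genes have processed copies, so fragments may be split between near-identical sequences. At 2 h the list had 1 higher and 52 lower, beside 32.6% and 28.5% of all genes. It did not share the reversal of the biogenesis genes. After Poly I:C without LPS, 1 of the 55 was higher and 38 lower at 6 h, beside 18.4% and 16.1% of all genes. The test of the priming difference with LPS against that without it was passed by 0 of the 55 in either direction, beside 12.7% and 16.7% of all genes.

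Enzymes that charge tRNAs with amino acids leaned upward. Of 20 aminoacyl-tRNA synthetases, 11 rose and 2 fell (4 with the 4 compared libraries fitted alone), with a median of 0.50. Mars, for methionine, rose from 8.16 and 5.53 FPKM after PBS to 22.6 and 20.4 FPKM after Poly I:C (1.54 ± 0.18), and Aars, for alanine, rose by 1.41. Eprs and Yars rose by 1.23 and 1.10. The 2 that fell were Rars and Wars, and Wars, the tryptophan enzyme and a known interferon target, was higher at 2 h (difference 1.90) and lower at 6 h (-0.63). Among 37 translation initiation and elongation factors 10 rose and 9 fell, and the number that rose dropped to 5, 4 and 5 when Poly I:C then LPS replicate 1, its replicate 2 or PBS then LPS replicate 2 was left out. In the fit over all libraries the shares were 27.0% and 24.3%, near the 23.7% and 25.9% of all genes. Eif5 rose by 1.01, whereas Eif3i, Eef1g and Eif5a fell (-0.90, -0.82 and -0.71).

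Genes of the amino acid and integrated stress response were higher after Poly I:C. In this response, phosphorylation of the initiation factor eIF2 favours translation of the transcription factor ATF4, which raises genes for amino acid import, tRNA charging and stress adaptation. Of 13 tested members of the ATF4 list, 11 rose and 1 fell, with a median of 1.42. Atf4 itself (chromosome 15, 80255184 to 80257540) stood at 294 and 289.5 FPKM after Poly I:C and 109 and 100.3 FPKM after PBS (1.47 ± 0.14, limma adjusted p = 1.44e-05). The replicates of each group lay close together beside the gap between the groups. Ddit3, which encodes CHOP, stood at 254 and 262 FPKM after Poly I:C and 32.0 and 37.2 FPKM after PBS (2.87 ± 0.20). Trib3, a pseudokinase target of ATF4 and CHOP, stood at 25.3 and 24.9 FPKM after Poly I:C and 2.81 and 3.03 FPKM after PBS (2.74 ± 0.11). Ppp1r15a, which encodes the eIF2 phosphatase subunit GADD34, and Nupr1, a stress-induced chromatin protein, rose by 2.58 ± 0.26 and 2.53 ± 0.25. Nupr1 was the most abundant of the 11 that rose, at 697 and 671 FPKM after Poly I:C and 103 and 135 FPKM after PBS. Atf3, an inhibitory member of the family, was the 1 that fell (-0.57), and Cebpb did not pass, at 119 and 98.2 FPKM against 66.0 and 92.8 FPKM.

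Most of these genes were also higher after Poly I:C without LPS. In Poly I:C then PBS against PBS then PBS at 6 h, 12 of the 13 were higher and 0 lower, beside 18.4% and 16.1% of all genes. At 2 h of LPS 11 were higher and 1 lower, beside 32.6% and 28.5% of all genes. The largest difference of the list without LPS was that of Nupr1, with 396 and 336 FPKM after Poly I:C and 6.03 FPKM in the control library, a difference of 5.70. Its priming difference was smaller under LPS than without it (change -3.17 ± 0.39, limma adjusted p = 2.38e-04).

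The composite C/EBP-ATF element TGATGCAA, known to be bound by ATF4 with C/EBP partners, was searched on both strands in the 250 bases before each start. It occurred in 3 of 13 ATF4 list genes with a promoter sequence, in 2 of 12 tRNA synthetases (16.7%) and in 2 of 12 amino acid transporters, against 50 of 7736 tested genes (0.646%). The ATF4 list was made of genes of the ATF4 response, so its share was partly set by that choice. All 7 are shown, since they are the members of the 3 lists that hold the element in this window. Each line gives 80 bases on the gene's strand in GRCm38.p6 with the element in capitals, in either orientation. Chac1 and Tars were picked for this match, after their values had been seen.
Nupr1: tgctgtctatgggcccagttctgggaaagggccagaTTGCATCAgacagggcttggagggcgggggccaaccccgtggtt
Chac1: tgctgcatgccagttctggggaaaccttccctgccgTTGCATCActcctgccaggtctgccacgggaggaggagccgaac
Aars: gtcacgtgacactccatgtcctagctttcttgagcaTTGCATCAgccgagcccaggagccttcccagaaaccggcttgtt
Tars: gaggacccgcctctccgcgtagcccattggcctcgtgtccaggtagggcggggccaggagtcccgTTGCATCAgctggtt
Slc7a11: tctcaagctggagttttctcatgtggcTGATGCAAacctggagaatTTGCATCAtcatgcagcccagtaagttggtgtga
Atf3: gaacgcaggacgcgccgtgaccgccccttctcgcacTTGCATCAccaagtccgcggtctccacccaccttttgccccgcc
Slc7a7: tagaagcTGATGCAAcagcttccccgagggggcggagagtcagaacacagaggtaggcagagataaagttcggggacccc
They lie at chr7:126625537-126625616 on the minus strand (Nupr1), chr2:119351013-119351092 on the plus strand (Chac1), chr8:111033694-111033773 plus (Aars), chr15:11399659-11399738 minus (Tars), chr3:50443627-50443706 minus (Slc7a11), chr1:191183400-191183479 minus (Atf3) and chr14:54417873-54417952 minus (Slc7a7). Slc7a11 holds the element in both orientations. Of these 7 genes, Nupr1, Chac1, Aars, Tars and Slc7a11 rose (by 2.53, 1.24, 1.41, 0.94 and 2.56), and Atf3 and Slc7a7 fell (-0.57 and -1.30). The element therefore stood before genes of both directions.

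Amino acid transporters rose in 8 of 16 tested and fell in 5. The number that fell was 3 without Poly I:C then LPS replicate 2 or PBS then LPS replicate 1. Slc7a11, the cystine importer that feeds glutathione synthesis, stood at 21.9 and 16.6 FPKM after Poly I:C and 3.15 and 1.81 FPKM after PBS (2.56 ± 0.29, limma adjusted p = 5.70e-05). Slc7a2, the arginine importer of activated macrophages, stood at 330.5 and 283 FPKM after Poly I:C and 57.3 and 64.7 FPKM after PBS (2.31 ± 0.18). Slc38a2, a sodium-coupled importer of neutral amino acids, rose by 2.12 ± 0.22, and Slc1a2, a glutamate importer, rose from 0.0836 and 0.185 FPKM after PBS to 8.70 and 8.86 FPKM after Poly I:C (3.11, or 5.28 with a pseudocount of 0.1). All but Slc7a2 were under 5 FPKM in both PBS-primed libraries. Slc7a7 and Slc7a8, which exchange cationic and neutral amino acids, fell, with differences of -1.30 and -1.11.

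Oxidative defence genes changed in both directions. Of 34 tested NRF2 and oxidative defence genes, 8 rose (23.5%, beside 23.7% of all genes) and 12 fell (35.3%, beside 25.9%). Among those that rose were genes of the glutathione and thioredoxin systems: Gsr, glutathione reductase, stood at 35.1 and 33.1 FPKM after Poly I:C and 9.44 and 9.93 FPKM after PBS (1.72 ± 0.14), Gclc, which catalyses the first step of glutathione synthesis, rose by 1.61 ± 0.16, and Txnrd1, thioredoxin reductase, by 1.41 ± 0.18. Nfe2l2, which encodes NRF2, rose by 0.91. Hmox1, the haem-degrading enzyme also placed under NRF2, fell from 627 and 468 FPKM after PBS to 110.4 and 104 FPKM after Poly I:C (-2.33 ± 0.14). Cat, catalase, and Gstm5, a glutathione transferase, fell, with differences of -1.85 and -2.04 (-3.22 for Gstm5 with a pseudocount of 0.1).

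**Figure D3:**
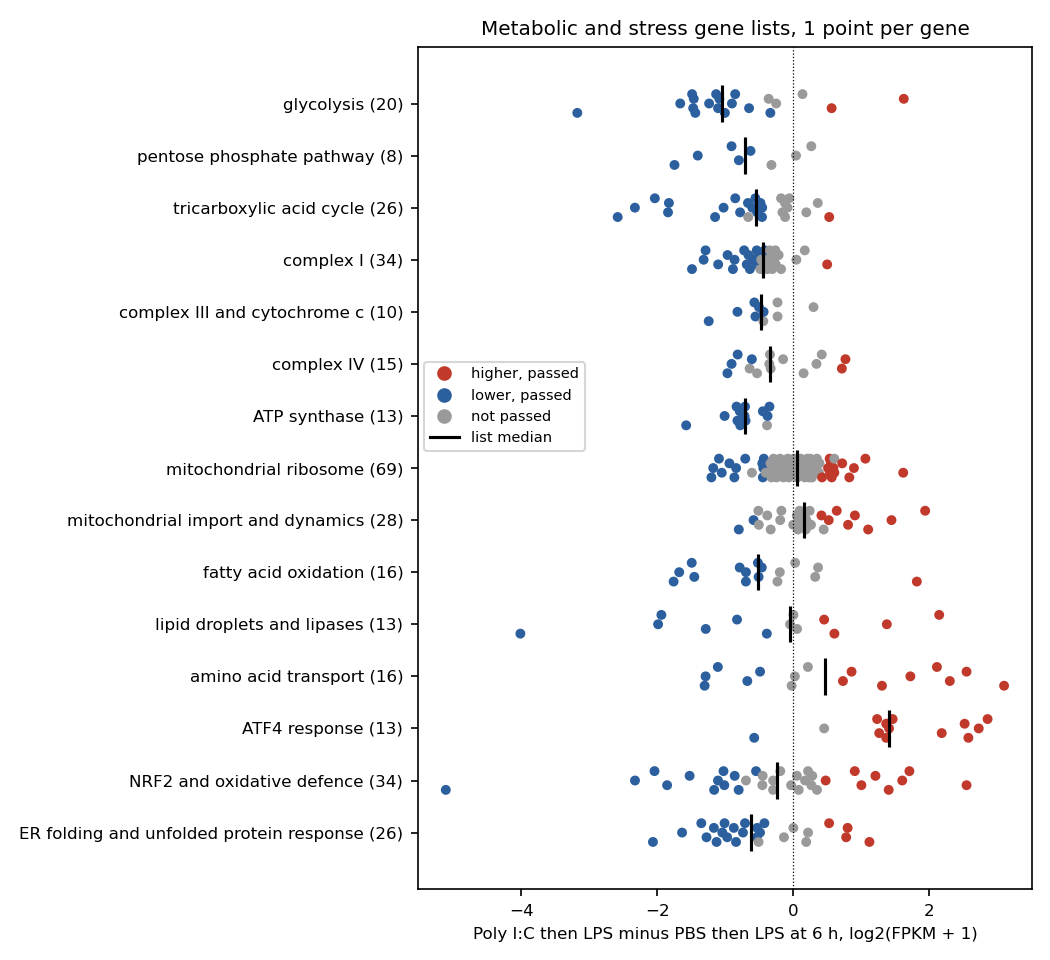
Difference at 6 h of LPS, Poly I:C-primed minus PBS-primed in log2(FPKM + 1), for each tested gene of 15 metabolic and stress lists (1 point per gene, red and blue for passing the test upward and downward, black bars for list medians). The ATF4 response lies to the right of 0, glycolysis and ATP synthase to the left, and amino acid transport and lipid droplets on both sides.

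Genes of protein folding in the endoplasmic reticulum (ER) were mostly lower. Of 26 tested ER folding and unfolded protein response genes, 4 rose (2 without Poly I:C then LPS replicate 1 or PBS then LPS replicate 2) and 17 fell, with a median of -0.62. Sdf2l1, an ER chaperone complex component, fell from 60.0 and 53.3 FPKM after PBS to 12.0 and 13.6 FPKM after Poly I:C (-2.06 ± 0.19). Pdia6, a disulfide isomerase, and Calr, the lectin chaperone calreticulin, fell, with differences of -1.63 and -1.35. Xbp1, the transcription factor activated by the ER stress sensor IRE1, fell, with a difference of -1.27, while Ern1, which encodes IRE1, rose from 3.52 and 3.93 FPKM after PBS to 9.63 and 8.99 FPKM after Poly I:C (1.13 ± 0.15). Among 22 cytosolic chaperones 1 rose (3 with upper-quartile scaling or with the 4 compared libraries alone) and 11 fell. Hspa1b and Hspa1a, the inducible HSP70 genes, stood at 3.46 and 3.69 FPKM after Poly I:C and 31.4 and 33.0 FPKM after PBS, and at 3.06 and 2.84 FPKM after Poly I:C and 21.0 and 25.6 FPKM after PBS. The pair are near-identical, so fragments could be assigned to either. At 2 h both had been higher after Poly I:C (0.97 and 1.48), and they lay lower at 6 h (-2.86 and -2.61). Hsf1, the heat shock transcription factor, was the 1 that rose in the fit over all libraries (1.40).

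Autophagy genes rose in 12 of 28 tested and fell in 2 (1 without Poly I:C then LPS replicate 2 or PBS then LPS replicate 2, and 4 with the 4 compared libraries fitted alone). Gabarapl1, an ATG8 family protein of the autophagosome membrane (chromosome 6, 129532094 to 129542331), stood at 93.5 and 104 FPKM after Poly I:C and 23.7 and 23.3 FPKM after PBS (2.02 ± 0.11, limma adjusted p = 5.89e-07). Sqstm1, the cargo receptor p62 and a target of NRF2, stood at 1153 and 1099 FPKM after Poly I:C and 293 and 273 FPKM after PBS (1.99 ± 0.14). Both were high in the Poly I:C-primed pair, and replicates of a group lay close together. Atg14, Atg10 and Ulk1 rose by 0.97, 0.85 and 0.84.

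Most enzymes of glycolysis were lower after Poly I:C at 6 h. Of 20 tested, 15 fell and 2 rose (1 without Poly I:C then LPS replicate 1 or PBS then LPS replicate 2), with a median of -1.04. Pkm, pyruvate kinase, stood at 281 and 282 FPKM after Poly I:C and 788 and 775 FPKM after PBS (-1.47 ± 0.14, limma adjusted p = 1.60e-05), and Pgk1, phosphoglycerate kinase, at 125 and 138 FPKM after Poly I:C and 432 and 402 FPKM after PBS (-1.66 ± 0.13). Aldoc, a brain-type aldolase, fell from 10.5 and 14.1 FPKM after PBS to 0.242 and 0.710 FPKM after Poly I:C (-3.18 ± 0.31). Hk1, Hk3 and Pfkp, which commit glucose to the pathway, fell, with differences of -1.10, -1.23 and -1.44. Hk2, the inducible hexokinase, rose from 15.2 and 14.3 FPKM after PBS to 23.3 and 21.5 FPKM after Poly I:C (0.57 ± 0.14, limma adjusted p = 0.00811), and its limma adjusted p was 0.0599 with Poly I:C then LPS replicate 1 left out and 0.0506 with PBS then LPS replicate 2 left out. Slc2a6, a hexose transporter of the lysosome, rose from 176 and 216 FPKM after PBS to 622 and 591 FPKM after Poly I:C (1.63 ± 0.18). Hk3 is among the genes that differed by time, with a difference of 1.87 at 2 h and -1.23 at 6 h (change -3.11 ± 0.23, limma adjusted p = 5.04e-06). In the pentose phosphate pathway, which supplies NADPH and ribose, 5 of 8 fell and 0 rose, including Taldo1 (from 181 and 187 FPKM after PBS to 51.7 and 57.0 FPKM after Poly I:C, -1.74 ± 0.14), G6pdx (-0.90) and Pgd (-0.80).

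Gpd2 was among the 12 largest rises. It encodes the mitochondrial glycerol-3-phosphate dehydrogenase, which passes electrons from cytosolic NADH into the respiratory chain (chromosome 2, 57236227 to 57378551). It stood at 211 and 199 FPKM after Poly I:C and 10.6 and 13.7 FPKM after PBS (3.98 ± 0.14, limma adjusted p = 1.16e-07). The Poly I:C-primed pair was high and the PBS-primed pair low, with replicates close together. At 2 h it stood at 140.2 and 155 FPKM after Poly I:C and 1.17 and 0.980 FPKM after PBS, and Poly I:C without LPS gave 8.83 and 7.29 FPKM against 0.211 FPKM in the control. The change of its priming difference with LPS was 1.08 ± 0.23 (limma adjusted p = 0.00555). The table holds a second Gpd2 row at the same locus, with a lower mean over the 14 libraries, which went the other way, at 15.6 and 14.9 FPKM after Poly I:C and 26.1 and 25.4 FPKM after PBS (-0.72 ± 0.18, limma adjusted p = 0.00804). Summed over both rows, Gpd2 was still higher after Poly I:C in both libraries.

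Genes of the mitochondrial energy pathways fell more often than they rose. In the tricarboxylic acid cycle and its entry enzymes, 16 of 26 fell and 1 rose (2 with upper-quartile scaling or the 4 compared libraries alone), with Idh2 (from 26.0 and 19.9 FPKM after PBS to 2.52 and 3.47 FPKM after Poly I:C, -2.58 ± 0.17) and Idh1 (from 21.8 and 16.3 FPKM after PBS to 3.78 and 3.93 FPKM after Poly I:C, -2.03 ± 0.15), the mitochondrial and cytosolic NADP isocitrate dehydrogenases, among the largest falls. Pdk1 and Pdk3, kinases that hold pyruvate dehydrogenase off, fell, with differences of -1.84 and -2.33. All 4 were scarce in both Poly I:C-primed libraries and several times higher in both PBS-primed ones. ATP synthase genes fell in 12 of 13 and rose in 0, led by its inhibitor Atpif1 (-1.57 ± 0.19), but 7 fell when any 1 of the 4 libraries was left out. Atp5a1, the catalytic core subunit alpha, stood at 143 and 147 FPKM after Poly I:C and 287 and 296 FPKM after PBS (-1.01 ± 0.11). Complex I genes fell in 17 of 34 and rose in 1. With a library left out, 0 rose, and 9, 11 and 10 fell without Poly I:C then LPS replicate 1, PBS then LPS replicate 1 or PBS then LPS replicate 2. Ndufv3, Ndufa4 and Ndufs8 fell, with differences of -1.49, -1.32 and -1.29. Complex IV genes fell in 4 of 15 (26.7%, near the 25.9% of all genes) and rose in 2 (13.3%, beside 23.7%). When the 6 h libraries or the 4 compared libraries were fitted alone, 9 fell. Transcripts encoded by mitochondrial DNA lay in rows shared with other genes and were not described.

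Genes of mitochondrial import and dynamics fell less often than genes in general did (7.14%, beside 25.9% of all genes). The share that rose was 28.6%, near the 23.7% of all genes. Of 28 mitochondrial import and dynamics genes 8 rose and 2 fell, with 5 that rose and 1 that fell without PBS then LPS replicate 2. Timm10, a small chaperone of the intermembrane space, stood at 43.6 and 45.7 FPKM after Poly I:C and 12.7 and 9.23 FPKM after PBS (1.95 ± 0.23), and its partner Timm9 rose by 1.11. Both had been lower after Poly I:C at 2 h (-0.82 and -0.87). Dnm1l, the GTPase that divides mitochondria, rose from 21.1 and 20.4 FPKM after PBS to 57.5 and 59.5 FPKM after Poly I:C (1.45 ± 0.20). Among 69 mitochondrial ribosome genes 13 rose and 12 fell, shares under those of all genes. Without a library, 7 or 8 rose in 3 of the 4 leave-outs (8 when Poly I:C then LPS replicate 1 was left out, 7 each for its replicate 2 and for PBS then LPS replicate 2), and 4, 6 and 5 fell when the library left out was Poly I:C then LPS replicate 1, PBS then LPS replicate 1 or its replicate 2.

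Lipid genes changed in both directions. Lpl, lipoprotein lipase, which frees fatty acids from lipoproteins (chromosome 8, 68880491 to 68907562), was among the 12 largest falls, from 629 and 471 FPKM after PBS to 34.8 and 30.8 FPKM after Poly I:C (-4.01 ± 0.19, limma adjusted p = 2.86e-07). Cd36, a fatty acid and lipoprotein scavenger receptor, fell from 196 and 169 FPKM after PBS to 28.6 and 28.7 FPKM after Poly I:C (-2.62 ± 0.23), and Lipa, the lysosomal acid lipase, fell from 218 and 208 FPKM after PBS to 54.4 and 51.5 FPKM after Poly I:C (-1.99 ± 0.16). In all 3 the PBS-primed libraries were the high ones by a wide margin. Plin2, which coats lipid droplets, was higher after Poly I:C at 2 h (difference 1.64) and lower at 6 h (216 and 224 FPKM after Poly I:C and 523 and 552 FPKM after PBS, -1.28 ± 0.11). Hilpda, an inhibitor of droplet lipolysis that responds to hypoxia, rose from 7.15 and 6.10 FPKM after PBS to 41.2 and 26.1 FPKM after Poly I:C (2.15 ± 0.22), and Acsl1, which activates fatty acids to acyl-CoA, rose from 116 and 131 FPKM after PBS to 381 and 367 FPKM after Poly I:C (1.59 ± 0.14). Of 16 fatty acid oxidation genes, 10 fell and 1 rose (2 with either other scaling or with fewer libraries), among them Acadl (-1.49) and Hadh (-1.68), while Eci2, an enoyl-CoA isomerase, rose from 31.3 and 23.1 FPKM after PBS to 96.8 and 98.9 FPKM after Poly I:C (1.82 ± 0.18). Fabp3 and Fabp5, fatty acid binding proteins, moved apart, at 1.51 and -1.58.

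Genes of cholesterol synthesis were lower in Poly I:C-primed cells with LPS and without it. Of 18 cholesterol synthesis genes 15 fell and 0 rose at 6 h of LPS, with a median of -1.43. Fdps, which makes the isoprenoid farnesyl diphosphate, fell from 50.9 and 57.4 FPKM after PBS to 2.34 and 2.91 FPKM after Poly I:C (-3.93 ± 0.20). Fads2 and Fads1, the desaturases of polyunsaturated fatty acids, fell from 9.25 and 8.27 FPKM after PBS to 0.111 and 0.233 FPKM after Poly I:C (-3.06, or -5.06 with a pseudocount of 0.1) and with a difference of -1.65, and without LPS they were lower as well (-4.33 and -1.42). Over 13 fatty acid synthesis and desaturation genes 3 rose and 4 fell. Without LPS 17 of the 18 cholesterol genes were lower after Poly I:C, beside 16.1% of all genes. Under LPS the difference was less negative than without it in 12 of 18 and more negative in 0. Over all genes that change was upward in 12.7% and downward in 16.7%.

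Eicosanoid genes fell in 9 of 17 and rose in 4. Ptgs2, which encodes the inducible prostaglandin synthase COX-2, was among the 12 largest rises, at 876 and 728 FPKM after Poly I:C and 24.3 and 27.3 FPKM after PBS (4.90 ± 0.35, limma adjusted p = 2.93e-06). Ltc4s and Alox5ap, which make leukotrienes, fell from 16.6 and 16.5 FPKM after PBS to 0.742 and 2.35 FPKM after Poly I:C (-2.86 ± 0.30) and from 382 and 326 FPKM after PBS to 95.7 and 122 FPKM after Poly I:C (-1.70 ± 0.35). The leukotriene receptor Cysltr1 and the prostaglandin E2 receptor Ptger4 fell, with differences of -2.02 and -1.49, after being higher at 2 h (0.75 and 0.58). Pla2g7, which degrades platelet-activating factor, rose by 1.55 ± 0.15.

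Genes of arginine metabolism changed in both directions. Arg2, the mitochondrial arginase, rose from 0.318 and 0.505 FPKM after PBS to 15.3 and 10.2 FPKM after Poly I:C (3.26 ± 0.21), and Slc7a2, given above, rose as well. Ass1, which regenerates arginine from citrulline (chromosome 2, 31470207 to 31520696), stood at 55.3 and 59.4 FPKM after Poly I:C and 140.4 and 146 FPKM after PBS (-1.31 ± 0.19, limma adjusted p = 2.63e-04). At 2 h Ass1 had stood at 159.7 and 182 FPKM after Poly I:C and 18.4 and 12.0 FPKM after PBS, so the order of the groups was the opposite (change -4.74 ± 0.26, limma adjusted p = 7.87e-07). Sat1, which acetylates polyamines for breakdown, fell, with a difference of -1.37. Across 15 arginine and polyamine genes 2 rose and 8 fell. Nucleotide synthesis genes fell in 9 of 23 and rose in 3 (1 without Poly I:C then LPS replicate 2 or PBS then LPS replicate 2). Impdh1, for guanine nucleotides, fell from 21.4 and 17.8 FPKM after PBS to 3.45 and 2.48 FPKM after Poly I:C (-2.38 ± 0.17), and Hprt, Rrm1 and Dck, of salvage and deoxynucleotide supply, fell, with differences of -1.72, -1.70 and -1.70.

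Lysosomal genes were lower in several classes. Of 30 lysosomal hydrolases 15 fell and 4 rose, with Gusb (from 161 and 164 FPKM after PBS to 32.2 and 34.9 FPKM after Poly I:C, -2.24 ± 0.10) and Man2b1 (-1.91), which split sugars off polysaccharides and glycoproteins, among those that fell, beside Lipa. For Gusb the 2 groups were far apart and the replicates of each close together. The number of hydrolases that rose was 2 without Poly I:C then LPS replicate 1 or PBS then LPS replicate 2. Cathepsins did not all follow. Ctsh, an aminopeptidase, rose from 132 and 148 FPKM after PBS to 623 and 572 FPKM after Poly I:C (2.08 ± 0.13), and Ctss, the protease that trims the MHC class II invariant chain, rose from 1565 and 1848 FPKM after PBS to 3493 and 3636 FPKM after Poly I:C (1.07 ± 0.20), while 7 of 15 lysosomal proteases fell, among them Lgmn (-0.74) and Ctsl (-0.65). Of 22 lysosomal membrane genes 11 fell and 3 rose (1 without Poly I:C then LPS replicate 2), with Slc29a3, a nucleoside exporter, falling from 36.3 and 39.8 FPKM after PBS to 9.99 and 8.09 FPKM after Poly I:C (-1.97 ± 0.18). In the vacuolar proton pump, 7 of 17 fell (4 with Poly I:C then LPS replicate 1 left out) and 1 rose (2 without the filter or with either other scaling). Its subunits Atp6v1d and Atp6v0d1 fell, with differences of -1.31 and -1.27, and Atp6v0b rose by 0.87.

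The protease and membrane classes also differed by time. The priming difference was lower at 6 h than at 2 h in 13 of 15 lysosomal proteases and higher in 0, and in 13 of 22 membrane genes and 0, against 25.3% and 19.1% of all genes. At 2 h, 8 of the 15 proteases were higher after Poly I:C and 1 lower, beside 32.6% and 28.5% of all genes. Among endosomal Rab proteins, Rab11fip1, an effector of recycling endosomes, rose from 8.06 and 7.36 FPKM after PBS to 48.9 and 42.6 FPKM after Poly I:C (2.42 ± 0.19), and Rab32, of lysosome-related organelles, rose by 1.27. Rab31 fell from 92.9 and 92.8 FPKM after PBS to 28.4 and 24.3 FPKM after Poly I:C (-1.78 ± 0.11).

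Fc receptors bind antibody on coated particles and pass it to phagocytosis. All 6 that were tested fell at 6 h (9 listed, 2 under the filter and 1 in a shared row). Fcgr3, an activating receptor for IgG (chromosome 1, 171051170 to 171064935), stood at 38.6 and 36.5 FPKM after Poly I:C and 547 and 629.7 FPKM after PBS (-3.93 ± 0.14, limma adjusted p = 1.16e-07). Fcgr4, an activating receptor for IgG2a and IgG2b (chromosome 1, 171018920 to 171029761), stood at 64.8 and 65.5 FPKM after Poly I:C and 380.4 and 455 FPKM after PBS (-2.66 ± 0.13, limma adjusted p = 2.89e-07). Fcgr1, the high-affinity receptor (chromosome 3, 96282684 to 96297226), stood at 307 and 281 FPKM after Poly I:C and 801 and 932 FPKM after PBS (-1.55 ± 0.15, limma adjusted p = 2.09e-05). For all 3 both Poly I:C-primed libraries were far below both PBS-primed ones. Fcgr2b, the inhibitory receptor, fell from 764 and 731 FPKM after PBS to 372 and 348 FPKM after Poly I:C (-1.05 ± 0.12), Fcrls fell from 219 and 236 FPKM after PBS to 29.1 and 31.8 FPKM after Poly I:C (-2.86 ± 0.11) and Fcgrt, the neonatal receptor that recycles IgG, fell from 26.6 and 33.1 FPKM after PBS to 6.60 and 7.11 FPKM after Poly I:C (-1.97 ± 0.18).

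The 6 Fc receptors did not move alike in time. At 2 h Fcgr1 stood at 578 and 548 FPKM after Poly I:C and 43.3 and 30.9 FPKM after PBS and Fcgr4 at 149 and 135 FPKM after Poly I:C and 21.4 and 17.6 FPKM after PBS, differences of 3.91 and 2.81 in favour of Poly I:C. The change from 2 h to 6 h was -5.46 ± 0.21 for Fcgr1 (limma adjusted p = 1.44e-07) and -5.46 ± 0.18 for Fcgr4 (limma adjusted p = 6.06e-08). Fcgr3 was lower after Poly I:C at both times (-3.20 and -3.93), and so were Fcrls (-2.16 and -2.86) and Fcgrt (-1.83 and -1.97). Without LPS at 6 h, Fcgr1 and Fcgr4 were higher after Poly I:C (3.26 and 3.12), the opposite of their order under LPS.

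Receptors for dead cells, lipoproteins and microbes were lower too. Of 23 scavenger and efferocytosis genes 17 fell and 0 rose, with a median of -1.40. Marco, a scavenger receptor for bacteria (chromosome 1, 120474538 to 120517615), stood at 1.69 and 1.55 FPKM after Poly I:C and 38.9 and 28.0 FPKM after PBS (-3.70 ± 0.29, limma adjusted p = 4.98e-06). Cd93 fell from 41.5 and 38.1 FPKM after PBS to 2.14 and 2.15 FPKM after Poly I:C (-3.70 ± 0.21). Gas6 and Pros1, ligands that bridge dying cells to the TAM receptors, fell from 119 and 127 FPKM after PBS to 4.64 and 5.57 FPKM after Poly I:C (-4.35 ± 0.14) and from 8.50 and 8.79 FPKM after PBS to 0.596 and 0.598 FPKM after Poly I:C (-2.59 ± 0.16), and Mertk, one of those receptors, fell, with a difference of -1.40. Ligands and receptor were thus low in the same libraries. Of 17 C-type lectins 8 fell and 3 rose, and 5 or 4 fell without Poly I:C then LPS replicate 2 or PBS then LPS replicate 2. Clec4e, the receptor Mincle for mycobacterial glycolipid, rose from 432 and 425 FPKM after PBS to 2395 and 2351 FPKM after Poly I:C (2.47 ± 0.11), and Ly75, the endocytic receptor DEC-205, rose by 2.69 (4.54 with a pseudocount of 0.1), while Clec4a2 and Clec4n, which encodes dectin-2, fell, with differences of -2.88 and -1.81.

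**Figure D4:**
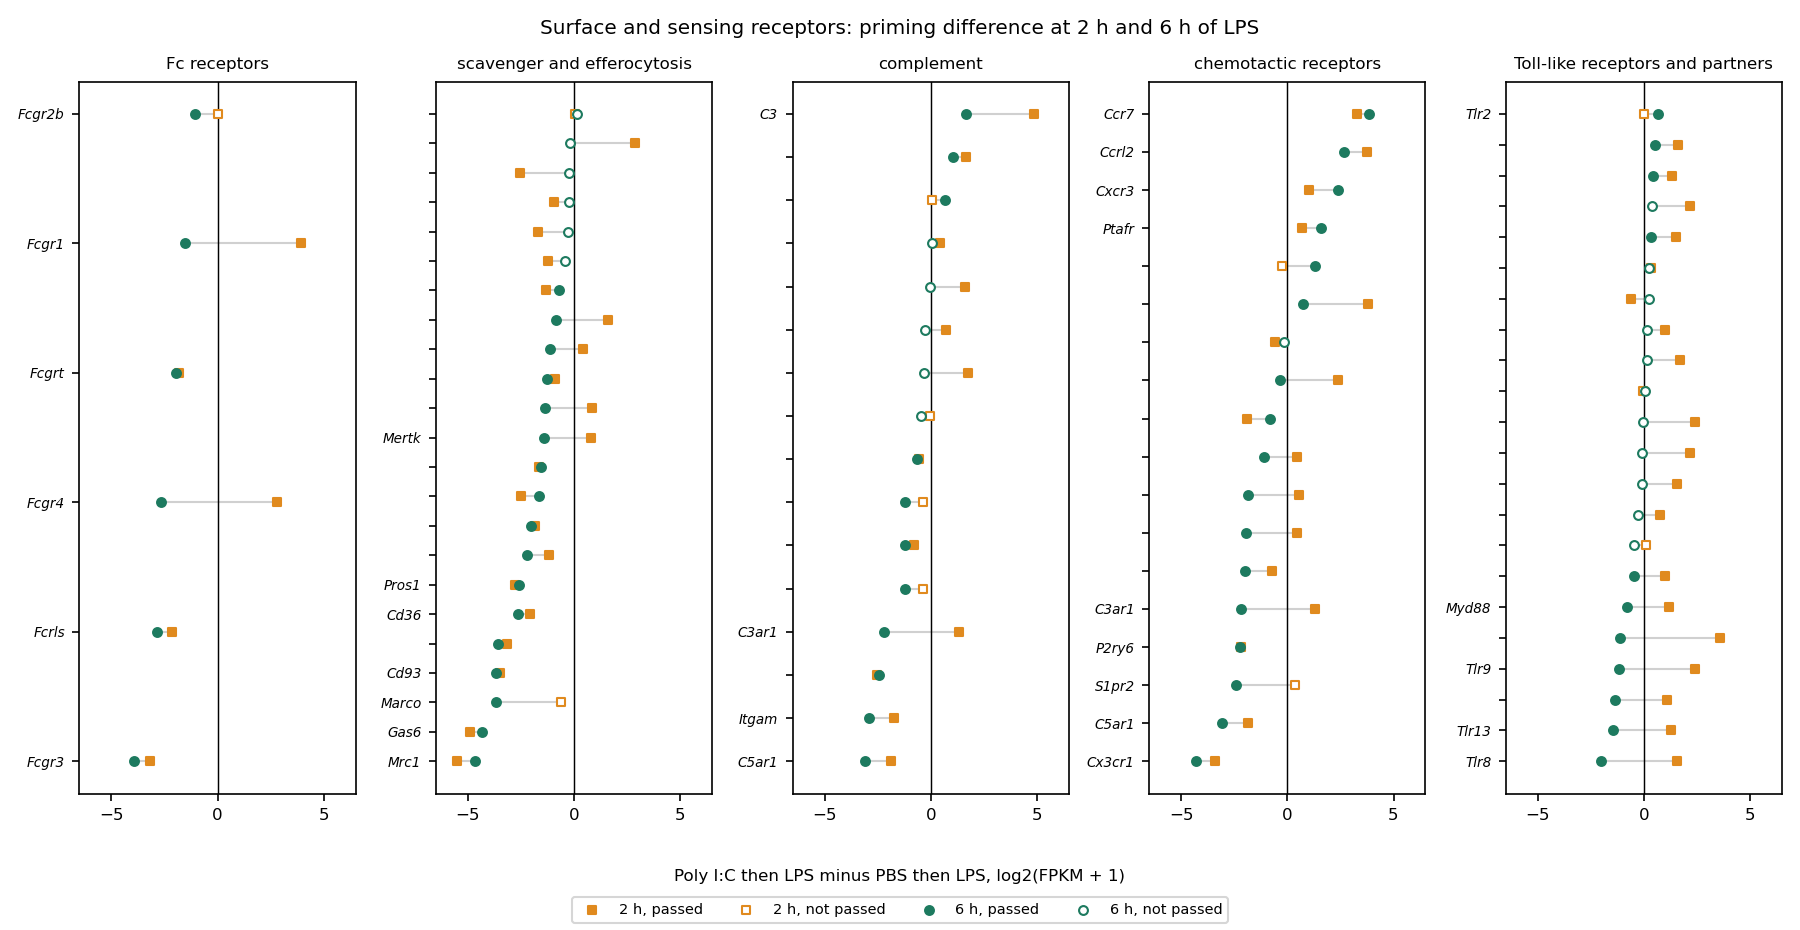
Priming difference, Poly I:C minus PBS in log2(FPKM + 1), on the horizontal axis for each tested gene of 5 receptor lists (1 panel per list, 1 row per gene, genes named in the text labelled), at 2 h (orange squares) and 6 h of LPS (green circles), filled where the test was passed. All 6 Fc receptors lie left of 0 at 6 h while Fcgr1 and Fcgr4 lie right of 0 at 2 h. Of 22 Toll-like receptors and partners 17 were higher at 2 h, beside 32.6% of all genes.

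Complement genes fell in 8 of 16 and rose in 3. The anaphylatoxin receptors C5ar1 and C3ar1 fell from 91.6 and 72.1 FPKM after PBS to 8.83 and 8.64 FPKM after Poly I:C (-3.08 ± 0.13) and from 567 and 589 FPKM after PBS to 129.8 and 122 FPKM after Poly I:C (-2.19 ± 0.12), and Itgam, a chain of complement receptor 3, fell from 199 and 178 FPKM after PBS to 24.2 and 24.9 FPKM after Poly I:C (-2.89 ± 0.17). C3, the central component of the cascade, rose from 496 and 545 FPKM after PBS to 1628 and 1636 FPKM after Poly I:C (1.65 ± 0.19). Of 18 chemotactic receptors 11 fell and 6 rose. At 2 h 10 of them were higher and 6 lower, beside 32.6% and 28.5% of all genes. S1pr2, a sphingosine-1-phosphate receptor, fell from 78.0 and 89.0 FPKM after PBS to 14.4 and 15.6 FPKM after Poly I:C (-2.40 ± 0.15), and P2ry6, a receptor for UDP from damaged cells, fell from 159.7 and 158 FPKM after PBS to 34.3 and 31.3 FPKM after Poly I:C (-2.24 ± 0.12). Ccrl2, which presents chemerin, Cxcr3 and Ptafr, the receptor of platelet-activating factor, rose by 2.66 ± 0.16, 2.38 ± 0.18 and 1.60 ± 0.14. Adora2a, the adenosine receptor that raises cAMP, rose from 6.01 and 8.31 FPKM after PBS to 92.9 and 95.1 FPKM after Poly I:C (3.56 ± 0.29), and Adora3 fell from 5.10 and 8.72 FPKM after PBS to 0.450 and 0.235 FPKM after Poly I:C (-2.52 ± 0.21, or -3.98 with a pseudocount of 0.1).

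Pattern recognition receptors were higher after Poly I:C at 2 h and no longer so at 6 h. Of 22 Toll-like receptors and partners, 17 were higher and 1 lower at 2 h, beside 32.6% and 28.5% of all genes. At 6 h 4 rose (18.2%) and 7 fell (31.8%), not far from the 23.7% and 25.9% of all genes. In opposite directions at the 2 times 7 passed, beside 9.47% of all genes. The number that rose at 6 h was 1, 2 and 1 with Poly I:C then LPS replicate 1, PBS then LPS replicate 1 or its replicate 2 left out. The priming difference was lower at 6 h in 16 of 22 and higher in 2, beside 25.3% and 19.1% of all genes. Tlr8, for endosomal RNA, stood at 26.0 and 20.8 FPKM after Poly I:C and 104 and 91.7 FPKM after PBS at 6 h (-2.02 ± 0.29), after a difference of 1.55 at 2 h. Tlr9, for unmethylated DNA, and Tlr13, for bacterial ribosomal RNA, were 2.42 and 1.26 at 2 h and -1.18 and -1.46 at 6 h. Their shared adaptor Myd88 went from 1.17 to -0.80. Tlr2, for bacterial lipoproteins, rose at 6 h (from 174 and 172 FPKM after PBS to 284 and 265 FPKM after Poly I:C, 0.66 ± 0.15).

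Genes of cell shape were lower after Poly I:C at 6 h. Of 38 genes of actin and of the small GTPases that govern cell shape, 20 fell and 5 rose, with a median of -0.53. At 2 h 15 of them were higher and 11 lower, beside 32.6% and 28.5% of all genes. Actb, cytoplasmic actin, fell from 7539 and 7756 FPKM after PBS to 1765 and 1692 FPKM after Poly I:C (-2.15 ± 0.18, limma adjusted p = 7.44e-06), and Vim, the intermediate filament vimentin, fell from 1960.1 and 2294 FPKM after PBS to 389 and 366 FPKM after Poly I:C (-2.49 ± 0.17). Actb is often used as a reference gene and at 2 h its priming difference was 0.15. Gsn, which severs actin filaments, and Flna, which crosslinks them, fell, with differences of -2.66 ± 0.14 and -1.97 ± 0.23. Against this, 3 of the small GTPases were higher. Rhof stood at 19.2 and 21.8 FPKM after Poly I:C and 1.03 and 1.22 FPKM after PBS (3.34 ± 0.26), Rnd1 at 29.1 and 25.5 FPKM after Poly I:C and 5.50 and 4.03 FPKM after PBS (2.30 ± 0.26) and Rhob was higher by 1.98 ± 0.12. Rnd1 had been lower after Poly I:C at 2 h (-2.56).

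Adhesion genes changed in both directions, 7 of 24 up and 9 down (29.2% and 37.5%, beside 23.7% and 25.9% of all genes). Itgb7, a leukocyte integrin chain, and Vcam1, an adhesion ligand, rose from 2.49 and 2.68 FPKM after PBS to 23.2 and 26.2 FPKM after Poly I:C (2.84 ± 0.15) and from 50.5 and 61.0 FPKM after PBS to 212 and 185 FPKM after Poly I:C (1.82 ± 0.17), while Itga6 and Cd9 fell, with differences of -2.57 ± 0.20 and -1.86 ± 0.13. Among guidance receptors Plxnd1 and Plxna1 rose by 1.94 and 1.91 and Sema4c fell from 49.9 and 54.6 FPKM after PBS to 5.26 and 3.05 FPKM after Poly I:C (-3.40 ± 0.21).

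Of 29 matrix proteases and inhibitors 16 fell and 2 rose. Plat, tissue plasminogen activator (chromosome 8, 22757744 to 22782847), was among those that rose, and stood at 24.6 and 25.6 FPKM after Poly I:C and 1.26 and 0.664 FPKM after PBS (3.75 ± 0.19, limma adjusted p = 3.74e-07). At 2 h Plat stood at 5.38 and 6.52 FPKM after Poly I:C and 7.82 and 9.40 FPKM after PBS and did not pass (-0.47 ± 0.19). Adam8 and Adam15, membrane sheddases, fell from 482 and 506 FPKM after PBS to 100.1 and 88.4 FPKM after Poly I:C (-2.38 ± 0.12) and with a difference of -1.999 ± 0.24. Of 23 matrix proteins 8 fell and 3 rose. Lgals1, a galactoside-binding lectin, fell from 1438 and 1466 FPKM after PBS to 185 and 202 FPKM after Poly I:C (-2.90 ± 0.18), and P4ha1, which hydroxylates collagen, was higher at 2 h (1.10) and lower at 6 h (-1.78).

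**Figure D5:**
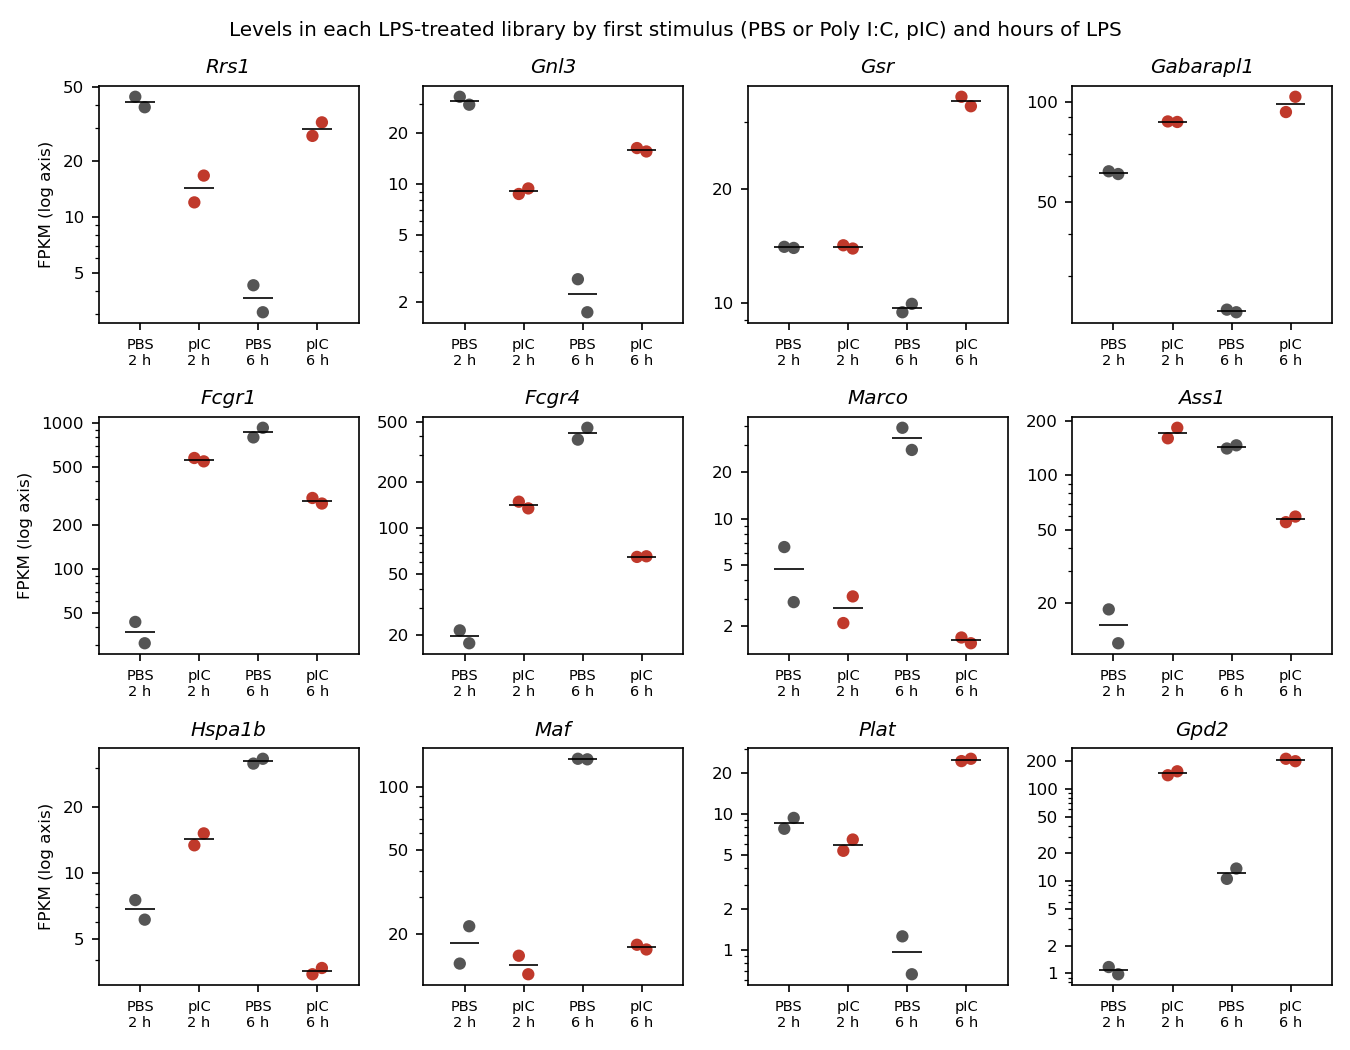
FPKM of 12 genes in each of the 8 LPS-treated libraries on a log axis, by first stimulus (PBS grey, Poly I:C abbreviated pIC, red) and hours of LPS, with the group mean as a bar. Rrs1 and Gnl3 are lowest in the PBS-primed libraries at 6 h, and Fcgr1, Fcgr4, Marco and Hspa1b are highest there.

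Signalling genes of the NF-kB pathway leaned upward, with 7 of 13 higher and 0 lower. Ikbkb, the catalytic kinase IKK-beta, stood at 194 and 194 FPKM after Poly I:C and 42.2 and 43.4 FPKM after PBS (2.15 ± 0.11, limma adjusted p = 3.19e-07), and Nfkb2 and Relb, of the non-canonical arm, rose by 1.65 ± 0.18 and 1.34 ± 0.19. Nfkbib, an inhibitor of the IkB family, rose by 1.37 ± 0.17, and Nfkbia did not pass (841 and 777 FPKM against 510.5 and 554 FPKM). MAP kinase phosphatases rose in 6 of 12 (3 with Poly I:C then LPS replicate 1 left out) and fell in 1 (2 with fewer libraries or with rows naming 1 protein-coding gene). Dusp4 and Dusp16, which act on ERK and JNK, rose by 2.31 ± 0.23 and 1.82 ± 0.16, while Dusp1, the early LPS-induced phosphatase, fell, with a difference of -1.02 ± 0.19. Among 25 feedback inhibitors 12 rose (7 with Poly I:C then LPS replicate 1 left out) and 7 fell (4 without its replicate 2). Traf1, Traf3 and Tank rose by 1.89 ± 0.22, 1.42 ± 0.24 and 1.36 ± 0.17. Zfp36, which encodes the mRNA decay factor tristetraprolin, was 2.39 at 2 h and stood at 269.9 and 200.3 FPKM after Poly I:C and 543 and 687 FPKM after PBS at 6 h (-1.39 ± 0.27).

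Of 27 genes of G protein regulation and cAMP signalling, 6 rose (22.2%) and 10 fell (37.0%), beside 23.7% and 25.9% of all genes. Rgs1, which shortens G protein signals from chemokine receptors (chromosome 1, 144243972 to 144249242), stood at 772 and 736 FPKM after Poly I:C and 47.0 and 60.5 FPKM after PBS (3.80 ± 0.21, limma adjusted p = 5.89e-07). Prkar2b, a regulatory subunit of protein kinase A, stood at 44.1 and 44.6 FPKM after Poly I:C and 3.55 and 3.48 FPKM after PBS (3.33 ± 0.19). Rgs14 and Pde7b, a cAMP phosphodiesterase, were 1.60 and 2.93 at 2 h and -2.56 and -2.27 at 6 h. Adcy7, an adenylyl cyclase, fell, with a difference of -2.26 ± 0.14. In the PI3K pathway Pik3cd, the leukocyte catalytic subunit, fell, with a difference of -2.35 ± 0.16.

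Transcription factors of macrophage identity fell more often than they rose, in 14 of 32 against 6. Maf, which helps hold macrophages in their differentiated state, stood at 17.8 and 16.9 FPKM after Poly I:C and 135 and 135 FPKM after PBS (-2.89 ± 0.18, limma adjusted p = 1.39e-06). The PBS-primed pair was high and the Poly I:C-primed pair low. Id1 and Etv5 fell, with differences of -2.65 ± 0.28 and -1.98 ± 0.18. Spic, a factor of haem-recycling macrophages, rose from 6.03 and 5.53 FPKM after PBS to 72.5 and 56.5 FPKM after Poly I:C (3.26 ± 0.17), and Runx3 rose by 1.52 ± 0.16.

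Inducible factors split as well. Of 20 AP-1 and EGR genes 9 rose (5 with Poly I:C then LPS replicate 1 left out) and 3 fell. Fos and Jun, the founding AP-1 subunits, fell from 61.3 and 50.4 FPKM after PBS to 8.23 and 6.12 FPKM after Poly I:C (-2.80 ± 0.26) and from 30.7 and 39.0 FPKM after PBS to 6.03 and 5.73 FPKM after Poly I:C (-2.37 ± 0.16). Batf, a dimer partner in the same family, and Maff, a small MAF protein, rose from 61.4 and 63.7 FPKM after PBS to 179.7 and 181 FPKM after Poly I:C (1.51 ± 0.25) and from 1.30 and 1.58 FPKM after PBS to 14.1 and 13.8 FPKM after Poly I:C (2.62 ± 0.27). Klf4 rose from 2.23 and 2.85 FPKM after PBS to 27.5 and 23.1 FPKM after Poly I:C (2.89 ± 0.20), and Hif1a, which encodes the oxygen-regulated factor HIF-1 alpha, rose by 1.30 ± 0.16, with 8 of 23 HIF list genes higher and 7 lower (3, 4 and 3 lower with Poly I:C then LPS replicate 1, its replicate 2 or PBS then LPS replicate 1 left out).

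Among chromatin genes Kdm4a, a demethylase of histone H3 lysine 9 and lysine 36, stood at 155 and 156 FPKM after Poly I:C and 17.7 and 21.1 FPKM after PBS (2.95 ± 0.18, limma adjusted p = 1.07e-06). Kdm6b, which removes methyl groups from H3 lysine 27 and is induced by LPS, rose from 1.10 and 1.30 FPKM after PBS to 11.6 and 7.37 FPKM after Poly I:C (2.23 ± 0.30). Hdac1, a histone deacetylase, fell from 92.0 and 102 FPKM after PBS to 28.1 and 26.6 FPKM after Poly I:C (-1.78 ± 0.12). Histone demethylases and methyltransferases rose in 27.3% and fell in 15.2% of those tested, beside 23.7% and 25.9% of all genes. Across 33 histone demethylases and methyltransferases 9 rose (5 without either Poly I:C library) and 5 fell. DNA methylation genes fell in 7 of 11 and rose in 1 (0 without Poly I:C then LPS replicate 1), with Uhrf1 and Dnmt1, which copy methylation at replication, at differences of -1.69 (-2.77 with a pseudocount of 0.1) and -1.02, the methyl-CpG reader Mbd2 at -1.41, and the demethylating enzymes Tet2 and Tet3 at -0.73 and -1.01. Cell division genes were low in the same libraries, where 26 of 29 mitosis genes and 14 of 26 DNA replication genes fell, and their part in the values of Uhrf1 and Dnmt1 was not tested.

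Secreted growth factors rose in 8 of 24 and fell in 10. Inhba, which encodes the activin A subunit, stood at 45.7 and 36.3 FPKM after Poly I:C and 3.30 and 1.98 FPKM after PBS (3.54 ± 0.23, limma adjusted p = 1.71e-06). Gdf15, a stress hormone and known target of ATF4 and CHOP, rose from 0.926 and 1.11 FPKM after PBS to 23.4 and 17.2 FPKM after Poly I:C (3.39 ± 0.24). Igfbp4, which binds insulin-like growth factors, fell from 85.7 and 84.4 FPKM after PBS to 9.25 and 8.20 FPKM after Poly I:C (-3.15 ± 0.18). Tgfbr1, a receptor kinase for TGF-beta, rose by 2.19 ± 0.25, while Tgfbi, a matrix target of that pathway, fell from 491 and 476 FPKM after PBS to 65.5 and 85.7 FPKM after Poly I:C (-2.67 ± 0.18). F10, coagulation factor X, rose from 2.87 and 2.53 FPKM after PBS to 48.1 and 42.5 FPKM after Poly I:C (3.64 ± 0.15), and Orm1, an acute-phase protein, rose by 3.16 ± 0.18. S100a4 and S100a10, calcium-binding proteins, fell from 881 and 862 FPKM after PBS to 43.3 and 68.2 FPKM after Poly I:C (-3.98 ± 0.31) and from 606 and 785 FPKM after PBS to 159 and 154 FPKM after Poly I:C (-2.13 ± 0.19).

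Of 17 zinc and copper genes 9 fell and 3 rose, and of 20 iron and haem genes 8 fell and 4 rose. The metallothioneins Mt1 and Mt2 fell from 275 and 315 FPKM after PBS to 33.0 and 30.2 FPKM after Poly I:C (-3.18 ± 0.26) and from 205 and 237 FPKM after PBS to 28.2 and 16.1 FPKM after Poly I:C (-3.31 ± 0.45), and the zinc exporter Slc30a1, which responds to the same zinc sensor, fell from 13.3 and 15.0 FPKM after PBS to 1.88 and 2.07 FPKM after Poly I:C (-2.35 ± 0.25). The 3 genes were thus high in the same PBS-primed libraries. The zinc and copper count that rose was 1 with Poly I:C then LPS replicate 1 left out and 5 when the 6 h libraries or the 4 compared libraries were fitted alone. Hamp, hepcidin, which blocks iron export, rose from 0.340 and 1.16 FPKM after PBS to 12.8 and 10.1 FPKM after Poly I:C (2.86 ± 0.41), and Slc25a37, the mitochondrial iron importer, rose by 1.76 ± 0.13. Slc48a1, a haem transporter of lysosomes, and Cp, the iron-oxidising protein ceruloplasmin, fell, with differences of -1.54 ± 0.14 and -1.21 ± 0.20, beside the fall of Hmox1 above. Cp had been higher after Poly I:C at 2 h (1.64).

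Inflammasome and cell death genes showed the pattern of the Toll-like receptors. Of 19 tested, 15 were higher and 2 lower at 2 h, beside 32.6% and 28.5% of all genes. At 6 h 5 rose (26.3%) and 9 fell (47.4%), beside 23.7% and 25.9%. The priming difference was lower at 6 h in 16 and higher in 0, beside 25.3% and 19.1%. Nlrp3, a sensor, and Mefv, which encodes pyrin, were higher at both times (1.76 and 0.89, 2.75 and 1.36). Pycard, the adaptor ASC, was lower at both (-1.18 and -1.23). Casp8, the initiator caspase of death receptors, changed order, from 1.38 to -1.15. Among p53 target genes 9 of 22 rose (5 without PBS then LPS replicate 1) and 3 fell, led by Gadd45a, from 1.90 and 3.00 FPKM after PBS to 59.9 and 64.7 FPKM after Poly I:C (4.22 ± 0.20).

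By size alone, the 12 largest rises among genes of at least 5 FPKM outside the cytokine and interferon-stimulated lists were H2-M2, Ptgs2, Krt16, Rcl1, Gadd45a, Rasgrp1, Gpd2, Vnn3, Ccr7, Rgs1, Bank1 and Plat. H2-M2, a non-classical MHC class I gene, stood at 546 and 536 FPKM after Poly I:C and 11.2 and 8.57 FPKM after PBS (5.65 ± 0.14). Rasgrp1, a Ras exchange factor, stood at 46.7 and 44.7 FPKM after Poly I:C and 1.75 and 2.08 FPKM after PBS (4.004 ± 0.16). Vnn3, a pantetheinase family gene, and Bank1, a B cell scaffold protein, rose from 0.538 and 0.778 FPKM after PBS to 25.6 and 24.2 FPKM after Poly I:C (3.97 ± 0.19) and from 0.530 and 1.07 FPKM after PBS to 23.1 and 22.9 FPKM after Poly I:C (3.75 ± 0.23). The B cell markers Pax5 and Blk were at 0 in these libraries. Krt16, a keratin, stood at 32.1 and 22.7 FPKM after Poly I:C and 0.0574 and 0 FPKM after PBS (4.77 ± 0.20, or 7.76 with a pseudocount of 0.1). All but Plat were also higher after Poly I:C at 2 h.

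The 12 largest falls were Ccnd1, Cbr2, Mrc1, Ube2c, Ccnb2, Gas6, Cx3cr1, Slc9a9, Cenpa, Rab3il1, Cd300lb and Lpl. Ube2c, Ccnb2 and Cenpa act in mitosis. Slc9a9, an endosomal sodium-proton exchanger, fell from 26.7 and 26.4 FPKM after PBS to 0.340 and 0.805 FPKM after Poly I:C (-4.15 ± 0.22). Rab3il1, an exchange factor for Rab3, fell from 37.9 and 28.1 FPKM after PBS to 0.729 and 1.16 FPKM after Poly I:C (-4.12 ± 0.21), and Cd300lb, an activating receptor for phosphatidylserine, fell from 32.5 and 24.99 FPKM after PBS to 0.651 and 0.777 FPKM after Poly I:C (-4.11 ± 0.20). All 12 were also lower after Poly I:C at 2 h.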

How the data were processed

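Polyadenylated RNA of 14 libraries was sequenced in pairs of 76 bp reads from a stranded kit, per the labels' protocols. Reads were aligned with TopHat2 and expression was made with Cufflinks and Cuffnorm, per the submitters' processing notes, with versions, scaling and use of strand not given in the sources used here. The deposited values are FPKM, which the authors had scaled between libraries, and absolute depth is unknown. The notes name mm9, but of 33853 rows naming 1 GENCODE M21 gene 33796 overlapped that gene in GRCm38, so positions, which are assembled loci, are given as GRCm38.

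Values were analysed as log2(FPKM + 1) with limma 3.58.1 in R 4.3.3, with 1 mean for each of 8 groups over 14 libraries, 6 residual degrees of freedom, a trend of variance with intensity and 2-sided tests. Of the tested rows 832 name several genes. Rows holding several genes were kept out of list counts, and where rows shared a name the one with the highest mean stands for the gene. In simulated data, 85% of changes of log2 1 were recovered. Those changes were planted in a small set of genes that were not weakly expressed, with independent errors of the fitted spread. The share recovered among weakly expressed genes, or with most genes changed, was not simulated.

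The 98 gene lists, the comparisons and the members described were chosen with earlier results of these data known. Genes were named by rule: the 12 largest rises and falls, up to 4 called members of each list in each direction (mean of at least 5 FPKM, no overlap), all members of lists of 12 or fewer, and a fixed set. Atf4, Ulk1, Hk1, Hk3, Pfkp, Myd88, Chac1 and Tars fall outside the rule and were chosen after their values were seen. The labels do not say whether replicate numbers pair libraries, and the main fit took libraries as unpaired. Promoters are RefSeq sequences of GRCm38.p6. Alternatives were a pseudocount of 0.1, no filter, 2 other scalings, no trend, fewer libraries, rows naming 1 protein-coding gene, a replicate term and leaving out each library. Some genes are not reported here.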

Additional observations from a re-analysis of the deposited data

Results flagged for a closer look

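Priming differences of these genes passed the limma test in opposite directions at 2 h and 6 h of LPS, and the change between the times passed as well. Over all tested genes this was so for 1134 (9.47%). The change is the 6 h difference minus the 2 h difference in log2(FPKM + 1). Among ribosome biogenesis genes it was so for 27 of 43, including Tsr1 (4.39), Grwd1 (4.38), Rrs1 (4.22) and Gnl3 (4.09), all higher at 6 h.

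Other genes that went from lower at 2 h to higher at 6 h after Poly I:C were Rnd1 (4.87), Hamp (4.07), Timm10 (2.76), Plxnd1 (2.54), Gclc (2.38), Hsf1 (2.15), Timm9 (1.98) and Hk2 (1.32). They act in cell shape, iron export, mitochondrial import, guidance, glutathione synthesis, the heat shock response and glycolysis.

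Genes of uptake and sensing went from higher to lower. They were Fcgr1 (-5.46), Fcgr4 (-5.46), Tlr8 (-3.58), Tlr9 (-3.60), Tlr13 (-2.72), Myd88 (-1.97), C3ar1 (-3.51), Mertk (-2.18), Cysltr1 (-2.77) and Ptger4 (-2.07). Signalling and death genes in the same class were Pde7b (-5.19), Rgs14 (-4.16), Zfp36 (-3.78), Atf3 (-2.65) and Casp8 (-2.53).

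Metabolic and housekeeping genes that went from higher to lower were Ass1 (-4.74), Slc29a3 (-4.02), Dck (-3.63), Hk3 (-3.11), Plin2 (-2.92), P4ha1 (-2.88), Cp (-2.85), Hmox1 (-2.80), Sat1 (-2.72), Wars (-2.53), Slc7a8 (-2.32), Atp6v1d (-1.75) and G6pdx (-1.35). The chaperones Hspa1a (-4.09) and Hspa1b (-3.83) and the DNA methylation genes Mbd2 (-1.92) and Tet2 (-1.71) belong here too. What these changes have in common was not tested.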

How the results depend on the processing

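At 6 h the main counts of 2841 higher and 3099 lower genes stayed within 1.5 times under all 13 alternatives. With any 1 of the 4 libraries left out they were 1989 to 2199 higher and 2348 to 2549 lower, and the library left alone in its group was taken to vary like the others. Upper-quartile scaling gave 3109 higher and 2896 lower. Of 238 genes named with a 6 h direction, 237 kept their call and direction in every alternative. Hk2 lost its call in 2 of them, with differences of 0.515 and 0.529. Most of these genes were named because they were called, did not overlap and changed most in these same libraries. Their stability was therefore largely set by that choice and does not speak for the other genes called. Pseudocount 0.1 enlarged the values of weakly expressed genes. Of 2470 list counts over the alternatives, 2304 stayed within 1.5 times, and of the other 166, 109 came from leaving out a library and 57 from other settings, mostly for counts of a few genes. A fit with the replicate number as a block gave 2704 higher and 2976 lower genes. Deviations of like-numbered libraries correlated at -0.19 to 0.078 over 15 pairs of groups. No large shift was thus shared by number, but such correlations cannot tell whether like-numbered libraries came from the same mouse, culture or day. Without counts, sampling error of weakly expressed genes cannot be set apart from other spread.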
